A study of Mus musculus with 30 samples.

Results

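Messenger RNA of 7 enzymes and cofactors that write, copy or remove DNA methylation was followed through mouse blood formation and through blood cells made from endothelium. The genes were taken by symbol from a table of 23060 genes, and all 7 (Dnmt1, Uhrf1, Dnmt3a, Dnmt3b, Tet1, Tet2 and Tet3) were present. All 7 are among the 14083 genes that passed the filter on low values. Levels are given as FPKM, which divides fragment numbers by the length of the transcript and by library size, so that genes can be compared with each other.

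The study asked whether adult mouse endothelial cells can be turned into haematopoietic stem cells. The first group of 3 libraries, called FGRS culture, held adherent cells grown together with HUVEC, an endothelial layer of human umbilical veins, and sorted on day 28 as KLS, meaning positive for Kit and Sca1 and negative for lineage markers. FGRS names the factors given to the starting endothelium, Fosb, Gfi1, Runx1 with Spi1, and the genotype of these cells is annotated as derived. A further 13 libraries titled rEC, also annotated as derived, are taken to be the progeny of such converted cells in transplanted mice. Their 13 control libraries came from wild-type mice. Each origin gave LKS-SLAM cells of the bone marrow (the fraction rich in long-term stem cells, 3 rEC and 3 control libraries), Gr1+ Cd11b+ myeloid cells of the blood (2 and 2), B cells sorted by B220 (3 and 3), and T cells carrying CD4 (2 and 2) or CD8 (3 and 3). Replicate 2 of rEC LKS-SLAM cells and of rEC B cells came from clone 47G1 in primary recipients. Secondary recipients gave replicate 3 of both, together with replicate 2 of the CD4 and replicates 2 and 3 of the CD8 rEC cells. Age, strain and sex are not given in the sources used here, and the titles of the other rEC libraries name no recipient. The labels do not say that libraries came from separate animals or cultures, so p-values measure only the spread between libraries, which may be technical.

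DNA methylation is the addition of a methyl group to cytosine, mostly where it precedes guanine (CpG). DNMT1 copies the mark to the new strand after replication, and UHRF1 recognises hemimethylated DNA and brings DNMT1 to it. DNMT3A and DNMT3B set new methylation. TET1, TET2 and TET3 oxidise methylcytosine, the first step of its removal. In the mouse, loss of Dnmt3a or of Tet2 in stem cells alters self-renewal and lineage output, and both genes are recurrently mutated in human myeloid disease.

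On the GRCm38 build (mm10) Dnmt1 lies at chr9:20907209-20959888 on the minus strand and Uhrf1 at chr17:56303321-56323486 on the plus strand. Dnmt3a lies at chr12:3806007-3914443 and Dnmt3b at chr2:153649450-153687730, both on the plus strand. The minus strand carries Tet1 at chr10:62804570-62908996, Tet2 at chr3:133463679-133545139 and Tet3 at chr6:83362373-83459084. Libraries were not stranded, and in the GENCODE annotation exons of Dnmt3a and Tet2 overlap antisense genes by at most 90 and 43 bases, which cannot be separated from them in these values.

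The promoters of Uhrf1 and Dnmt1 are shown because these genes varied with replication genes over the libraries, as described further on. RefSeq lists 12 start sites for the 7 genes on GRCm38.p6, each with a window of 300 bases, 250 before and 50 after the start. These were searched on both strands for 4 letter strings of the kind bound by E2F factors, which act on replication genes (TTTCCCGC, TTTGGCGC, TTTGCCGC and TTTCGCGC, with no overlap among the matches found). The last 2 strings were added after the promoters had been seen. Of the 12 windows, 2 held a match, 1 of 2 for Uhrf1 and 1 of 3 for Dnmt1, against 2.26% of the 32851 windows of all genes. With the first 2 strings alone, the Dnmt1 window matched and no Uhrf1 window did, against 1.56% of all windows. The first sequence is the 250 bases before the matching Uhrf1 start (chr17:56304063-56304312, plus strand, no exon). The others are the sites in the matching Dnmt1 window (chr9:20952825-20952852 and chr9:20952574-20952600, minus strand), and both Dnmt1 matches lie in annotated exons. All are written 5′ to 3′ on the strand of the gene, with the match in capitals. The first Dnmt1 match reads on the opposite strand.
Uhrf1 upstream: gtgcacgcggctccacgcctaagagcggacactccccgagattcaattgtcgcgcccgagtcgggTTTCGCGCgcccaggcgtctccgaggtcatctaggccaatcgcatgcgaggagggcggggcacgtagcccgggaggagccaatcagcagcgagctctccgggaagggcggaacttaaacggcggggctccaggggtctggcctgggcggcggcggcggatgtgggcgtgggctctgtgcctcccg
Dnmt1 site before the start: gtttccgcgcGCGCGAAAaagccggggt
Dnmt1 site after the start: cggggcagcgTTTGGCGCgggctgtgc
The windows with matches each held 33 CpGs, against a median of 7 over all windows, and windows without a match held up to 57, at Tet2. A match says only that these letters are present.

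Relative depth ran from 0.590 to 1.13 of the reference library, B control replicate 2, and 10165 to 12550 genes per library reached 1 FPKM. A pair of libraries stood apart. LKS-SLAM rEC replicate 2 had the highest value of the 6 LKS-SLAM libraries for 18 of 18 replication genes, 16 of 16 mitosis genes and 6 of 6 erythroid markers, and its 10 stem cell markers summed to 156 FPKM, against 697 to 1115 FPKM in the other LKS-SLAM libraries. B cell rEC replicate 1 had 8 T cell markers summing to 1995 FPKM and 7 B cell markers summing to 1815 FPKM, against 14.2 to 23.2 and 6124 to 7253 FPKM in the other grouped B cell libraries. Differences and shares of the 7 genes in rEC cells are mostly given with and without the library concerned. Stem cell markers summed to 124 to 184 FPKM in FGRS culture, below the LKS-SLAM controls at 697 to 762 FPKM. Macrophage markers (8 genes) summed to 123, 1144 and 631 FPKM in FGRS culture, against 15.1 to 20.9 FPKM in LKS-SLAM controls, and 7 neutrophil markers summed to 164, 3398 and 1121 FPKM in FGRS culture, against 1119 to 1395 FPKM in LKS-SLAM controls. The part of these markers in the results was not tested, and in bulk RNA fewer cells of a type and less RNA per cell cannot be told apart.

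Uhrf1, the cofactor that guides maintenance methylation, had the widest span of the 7 genes. Blood myeloid cells lay between 0.149 and 0.249 FPKM in every library of both origins, and blood lymphocytes between 1.89 and 5.10 FPKM. It averaged 71.2 ± 16.2 FPKM in FGRS culture, 42.1 ± 50.7 FPKM in rEC LKS-SLAM cells and 45.5 ± 7.28 FPKM in control LKS-SLAM cells (SD, n = 3 each). The ratio of the highest to the lowest group mean was 474, and the ranges of FGRS culture, LKS-SLAM cells, lymphocytes and myeloid cells did not overlap between these classes, apart from LKS-SLAM rEC replicate 2 at 100.4 FPKM, above all FGRS libraries.

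Dnmt1, the maintenance methyltransferase itself, followed the same order of cell classes with a narrower span. Myeloid libraries held 7.29 to 8.10 FPKM and lymphocyte libraries 29.9 to 46.5 FPKM. FGRS culture averaged 80.0 ± 19.9 FPKM, rEC LKS-SLAM cells 56.3 ± 40.2 FPKM and control LKS-SLAM cells 63.8 ± 8.12 FPKM (SD, n = 3 each), and the ratio of the highest to the lowest group mean was 10.5. Among neighbours in the order of group means, only rEC CD4 over control CD4 cells and control B over control myeloid cells had ranges apart. Lymphocyte Dnmt1 thus reached into the range of the LKS-SLAM libraries, while lymphocyte Uhrf1 lay below all of them.

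**Figure D1:**
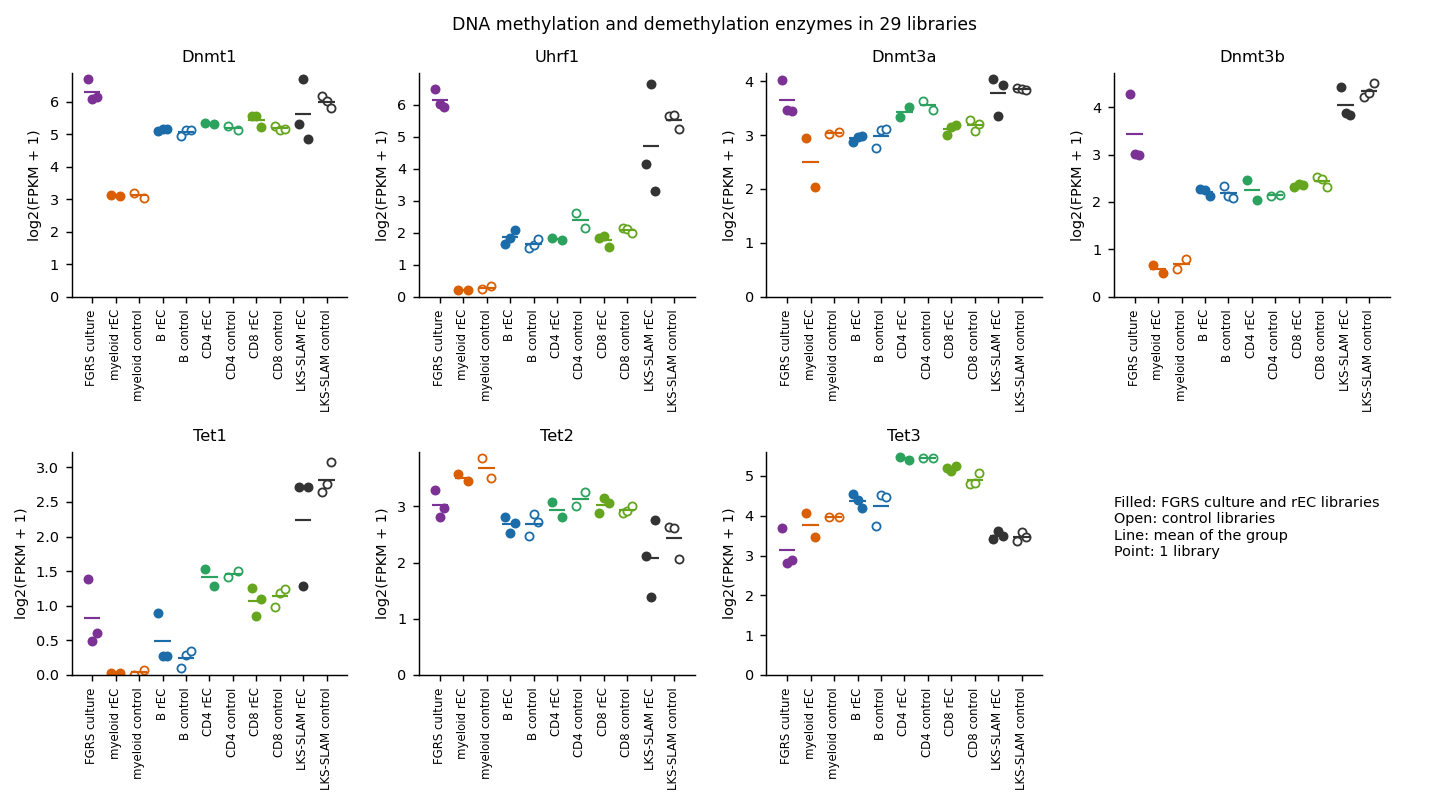
Level of each of the 7 genes as log2(FPKM + 1) (vertical axis) in 29 libraries by group (horizontal axis); filled points are FGRS culture and rEC libraries, open points control libraries, and lines group means. Uhrf1 and Dnmt3b are lowest in myeloid cells, Tet1 is highest in LKS-SLAM cells, and Tet3 is highest in CD4 T cells.

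The balance of the pair within a library showed this directly. For every 100 FPKM of Dnmt1, CD8 T cells had Uhrf1 at 5.62 ± 0.282 FPKM in rEC cells and 9.15 ± 0.618 in control cells (SD, n = 3 each). CD4 T cells had 6.26 ± 0.187 in rEC cells and 11.9 ± 2.46 in control cells (SD, n = 2 each). FGRS culture had 89.4 ± 4.12 (SD, n = 3), rEC LKS-SLAM cells 57.9 ± 35.3 and control LKS-SLAM cells 71.2 ± 6.26. Without replicate 2 the rEC LKS-SLAM libraries had 32.0 and 43.8, below the controls. The ranges of rEC and control cells were apart in both T cell types and in myeloid cells, lower in rEC cells each time. They were 5.40 to 5.93 against 8.53 to 9.76 in CD8 cells and 6.13 to 6.39 against 10.1 to 13.6 in CD4 cells. Myeloid cells had the lowest balance, at 1.97 ± 0.0535 in rEC and 2.81 ± 0.865 in control cells (SD, n = 2 each). Uhrf1 itself was at most 0.249 FPKM in myeloid cells. In B cells the ranges overlapped, at 6.44 to 9.44 in rEC and 5.95 to 7.30 in control cells. Without B rEC replicate 1 the rEC libraries, at 7.32 and 9.44, lay above the controls. The control CD8 libraries also held more B cell markers (7 genes summing to 6.86 to 65.6 FPKM in rEC and 214 to 500 FPKM in control CD8 cells) and more macrophage markers (8 genes, 0.365 to 3.18 FPKM in rEC and 9.38 to 38.3 FPKM in control CD8 cells), whose part in any rEC and control difference of CD8 cells was not tested. No test was run on these balances. For single genes, ranges of rEC and control cells were apart in 44.2% of all genes in myeloid, 37.3% in CD4 and 30.5% in CD8 cells. No such share was taken over balances of other genes, so ranges apart are not a result by themselves here.

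Lineage comparisons were made within each origin on log2(FPKM + 1) with limma, and a gene was called at a Benjamini-Hochberg adjusted p under 0.05 over all genes tested. All lineage comparisons of an origin share the LKS-SLAM libraries of that origin. In rEC mice 6 of the 7 genes were called in myeloid minus LKS-SLAM cells, against 68.4% of all genes tested. The count was 6 in B cells against 52.4%, 5 in CD4 cells against 50.3% and 6 in CD8 cells against 54.2% of all genes. When LKS-SLAM rEC replicate 2 was left out, it was 6 in myeloid cells against 71%, 5 in B cells against 54.3%, 5 in CD4 cells against 52.8% and 6 in CD8 cells against 56%, and without B rEC replicate 1 it was 5 in B cells against 52%. In control mice 6 were called in myeloid cells against 66.5%, 6 in B cells against 55.6%, 6 in CD4 cells against 50.5% and 6 in CD8 cells against 50.2%. The medians over all genes were themselves below 0, at -0.61 in control myeloid cells and -0.21 to -0.25 in control lymphocytes, and quantile normalisation brought them to between -0.07 and 0.06.

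Uhrf1 fell in all 8 of these comparisons. The difference was -4.51 ± 0.52 (SE) in rEC and -5.25 ± 0.52 in control myeloid cells, and -2.86 to -2.95 in rEC and -3.14 to -3.88 in control lymphocytes, with adjusted p at most 9.76e-05. In models of the groups alone Uhrf1 was no longer called in rEC B cells (adjusted p = 0.0556) and rEC CD4 cells (0.123). Dnmt1 also fell in myeloid cells, with differences of -2.51 in rEC and -2.89 in control mice. In lymphocytes its difference was -0.17 to -0.48 in rEC cells, not called, and -0.81 to -0.94 in control cells, called with adjusted p of 0.00617 to 0.0329. The control CD4 call was lost without either CD4 control library (adjusted p = 0.0916 and 0.145) and without LKS-SLAM control replicate 1 (0.0921) or 2 (0.0662). The control CD8 call was lost without LKS-SLAM control replicate 1 (0.0598). Without LKS-SLAM rEC replicate 2, the library set apart, Uhrf1 differed by -3.54 in rEC myeloid cells and by -1.88 to -1.97 in rEC lymphocytes, and Dnmt1 by -1.97 in rEC myeloid cells, all called, and Dnmt1 by 0.06 to 0.37 in rEC lymphocytes, above 0 but not called. Without B rEC replicate 1, the other library set apart, the rEC B cell differences were -2.75 for Uhrf1, called, and -0.46 for Dnmt1, not called. Without LKS-SLAM rEC replicate 3, Dnmt1 was called in rEC B cells at -0.86 and rEC CD4 cells at -0.66. Whether the lineage differences of rEC and control cells differ was tested only through the comparison of origin effects, given further on.

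**Figure D2:**
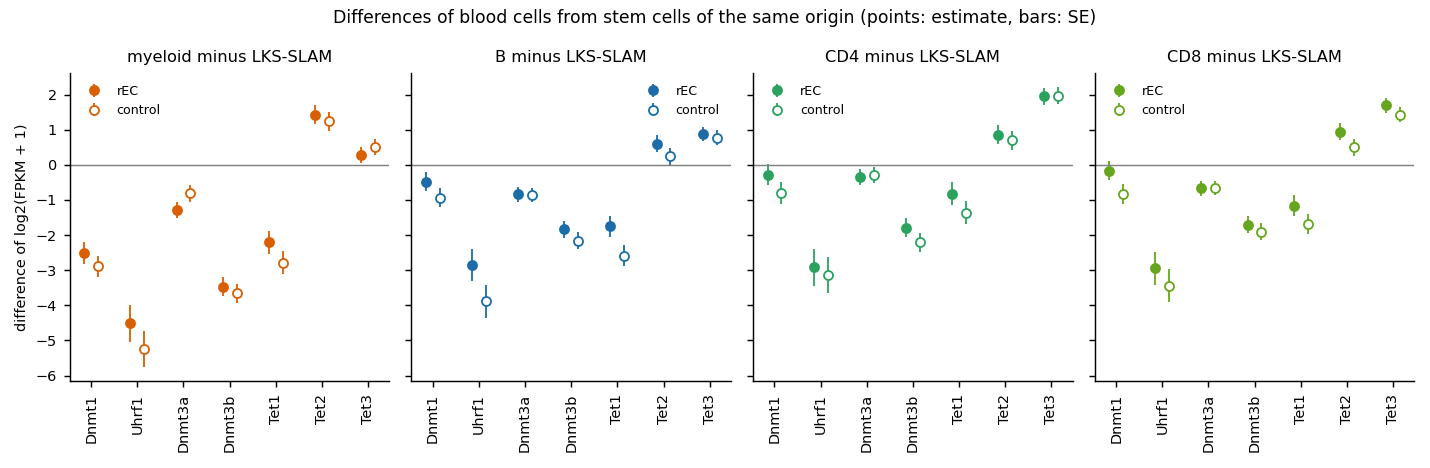
Difference of log2(FPKM + 1) between each blood cell type and LKS-SLAM cells of the same origin (vertical axis) for the 7 genes (horizontal axis), with filled points for rEC, open points for control and bars for the SE. Uhrf1, Dnmt3b and Tet1 are below 0 in every panel, and Tet3 in CD4 cells is 1.95 above LKS-SLAM cells in rEC and 1.97 above in control.

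Genes of DNA replication fell with them. Of 18 replication genes, 18 were lower in control myeloid cells (median -4.03), against 49.1% of all genes called lower, and 17 in each control lymphocyte type (medians -2.22 to -2.39), against 36.7% in B, 32% in CD4 and 33.2% in CD8 cells. Among 9 partners of maintenance methylation, 7 were lower in control myeloid cells and 5 in each control lymphocyte type, against the same shares of all genes. Lig1, which seals nicks on the new strand, differed by -4.82 in myeloid cells, and Cdca7, which activates the chromatin remodeller HELLS, by -4.23. The summed level of the 18 replication genes was 31.6 to 41.2 FPKM in myeloid cells and 157 to 203 FPKM in lymphocytes. It was 1178 to 1562 FPKM in FGRS culture, 273 to 1972 FPKM in rEC LKS-SLAM cells and 703 to 964 FPKM in control LKS-SLAM cells.

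**Figure D3:**
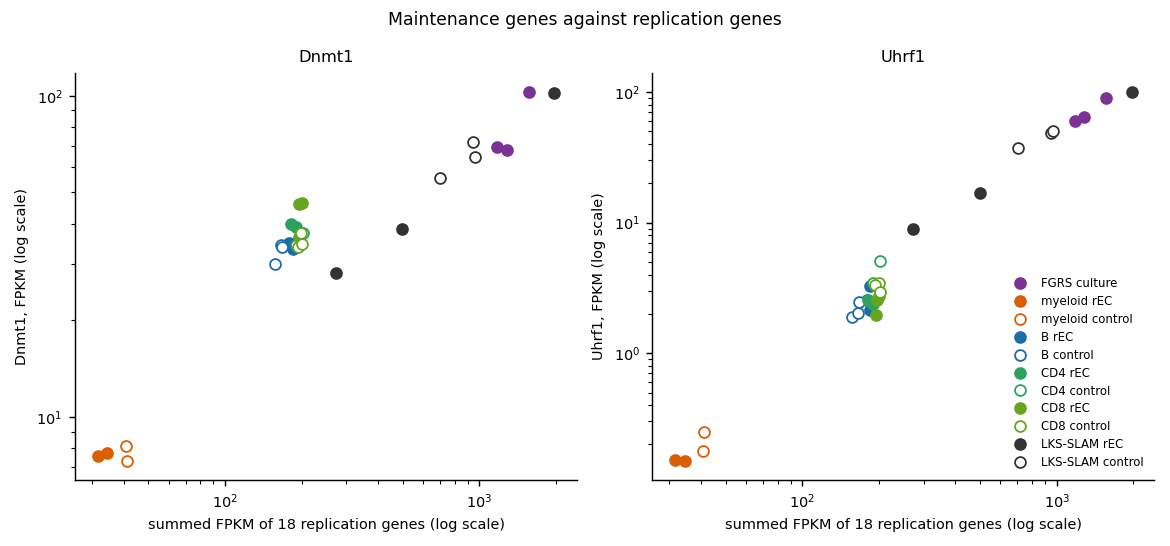
Dnmt1 (left) and Uhrf1 (right) in FPKM against the summed FPKM of 18 replication genes in 29 libraries, both axes logarithmic, filled points for FGRS culture and rEC and open points for control. LKS-SLAM rEC replicate 2 lies at the upper right with a sum of 1972 FPKM, and the myeloid libraries lie at the lower left.

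Set against these genes, the pair divided. Per 1000 FPKM of replication genes, Uhrf1 stood at 4.32 to 6.05 in myeloid cells, 10.0 to 25.2 in lymphocytes, 49.6 to 57.5 in FGRS culture, 32.8 to 50.9 in rEC LKS-SLAM cells and 51.5 to 52.8 in control LKS-SLAM cells. The rEC LKS-SLAM libraries had 33.9, 50.9 and 32.8, so replicate 2 was close to the controls at 51.5 to 52.8 and replicates 1 and 3 were below them. Dnmt1 ran the other way, at 177 to 238 in myeloid cells and 172 to 234 in lymphocytes, against 59.2 ± 6.60 in FGRS culture, 77.3 ± 25.4 in rEC LKS-SLAM cells (90.05 without replicate 2) and 73.8 ± 6.19 in control LKS-SLAM cells (SD, n = 3 each). Relative to this sum, Uhrf1 was thus lower and Dnmt1 higher in blood cells than in control LKS-SLAM cells. These ratios were added after the values had been seen and carry no test.

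Correlation over the 29 libraries is given as a description, since the libraries share cell types and origins. The 5 genes with the highest Pearson's r to Uhrf1 were Pola1 (r = 0.985), the cyclin Ccna2, Chaf1a, Hells and Rrm2 (0.979 for the last). To Dnmt1 they were Pola2 (r = 0.986), Topbp1, Trap1, Mcm2 and Prim1 (0.977 for the last). Exons of Chaf1a and Ccna2 overlap those of Ubxn6 and Exosc9, which unstranded reads cannot separate.

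Dnmt3a, a de novo methyltransferase, varied least, with a ratio of 2.74 between the highest and the lowest group mean. It had 15.2, 10.1 and 9.84 FPKM in FGRS culture, 15.5, 9.21 and 14.3 FPKM in rEC LKS-SLAM cells and 13.6, 13.4 and 13.3 FPKM in control LKS-SLAM cells, with overlap between all of them. Its order of means ran from control LKS-SLAM cells down to rEC myeloid cells at 4.91 ± 2.56 FPKM (SD, n = 2), and of the 10 steps between neighbours only that from rEC CD4 to control CD8 cells separated their ranges. Dnmt3a fell in myeloid against LKS-SLAM cells, with differences of -1.29 in rEC and -0.82 in control mice (adjusted p = 4.6e-05 and 0.00378), but under quantile normalisation the control difference was -0.13 and was not called. It also fell in B cells (-0.84 in rEC and -0.87 in control) and in CD8 cells (-0.67 in rEC and -0.66 in control). The rEC calls were lost when the groups were fitted alone, with adjusted p of 0.0618 to 0.101, and the rEC CD8 call also without LKS-SLAM rEC replicate 1 (0.0513). In CD4 cells the difference was -0.34 in rEC and -0.30 in control cells, not called, but without LKS-SLAM rEC replicate 2 the rEC difference was -0.56 and was called (adjusted p = 0.0386). Without that library the rEC differences were -1.50 in myeloid, -1.06 in B and -0.89 in CD8 cells, and without B rEC replicate 1 the B cell difference was -0.80, all called.

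Dnmt3b, the other de novo enzyme, was a gene of the stem cell and culture libraries. All myeloid libraries lay between 0.412 and 0.727 FPKM and all lymphocyte libraries between 3.14 and 4.78 FPKM. FGRS culture had 18.5, 7.12 and 6.96 FPKM. LKS-SLAM rEC libraries had 20.7, 13.7 and 13.4 FPKM and LKS-SLAM controls 17.7, 18.7 and 21.9 FPKM. FGRS replicate 1 thus lay within the range of LKS-SLAM controls and replicates 2 and 3 below it, and neither blood class overlapped any of these libraries. Against LKS-SLAM cells Dnmt3b fell in myeloid cells, with differences of -3.47 in rEC and -3.66 in control mice. It fell in all lymphocytes too, with differences of -1.70 to -1.84 in rEC and -1.90 to -2.21 in control cells, with adjusted p at most 1.59e-05 throughout. Leaving out LKS-SLAM rEC replicate 2 gave differences of -3.56 in rEC myeloid cells and -1.79 to -1.93 in rEC lymphocytes, and leaving out B rEC replicate 1 gave -1.87 in rEC B cells, all called.

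Dnmt3b therefore made up a changing share of the 2 de novo enzymes. It was 35.3% and 34.1% in rEC and control B cells, 35.1% and 35.4% in rEC and control CD8 cells, and 28.1% and 24.2% in rEC and control CD4 cells. The share was lowest in myeloid cells, at 9.95% ± 2.50 in rEC and 7.84% ± 1.77 in control cells (SD, n = 2 each). It was 45.9% ± 7.73 in FGRS culture, 55.1% ± 6.02 in rEC and 59.0% ± 2.99 in control LKS-SLAM cells (SD, n = 3 each). Without the libraries set apart the rEC means were 52.7% in LKS-SLAM and 34.1% in B cells (n = 2 each). The genes most like Dnmt3b were Myb (r = 0.971), a transcription factor of blood progenitors, Suclg2, Mzt1, Ankrd28 and Dynll2. For Dnmt3a they were Stard4 (r = 0.902), Calcrl, Reps1, Lrrc58 and Git1.

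**Figure D4:**
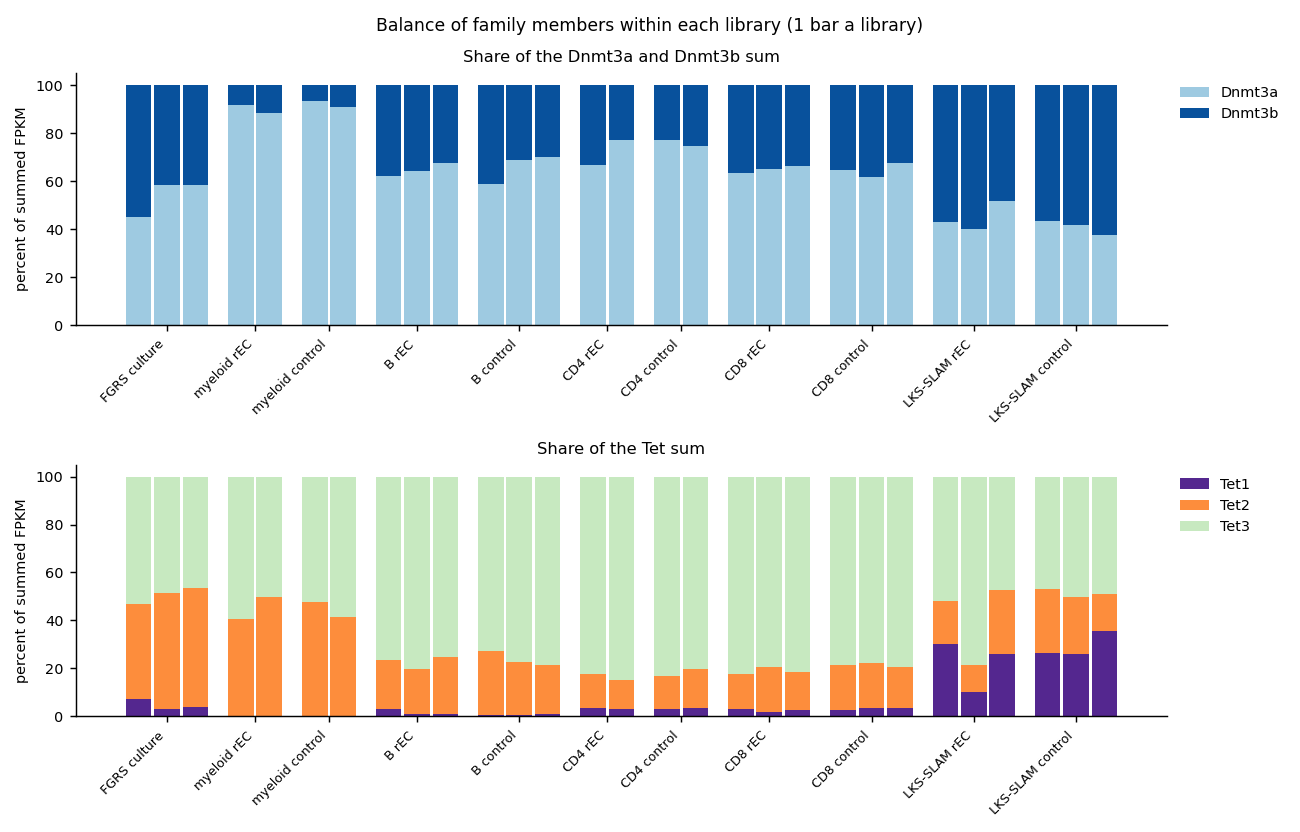
Share of Dnmt3a and Dnmt3b in their summed FPKM (top) and of Tet1, Tet2 and Tet3 in theirs (bottom), in percent, with 1 bar a library grouped along the horizontal axis. Dnmt3b takes 7.84% in control myeloid and 59.0% in control LKS-SLAM cells on average, and Tet3 takes the largest share in every lymphocyte library.

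Among the TET dioxygenases, Tet1 marked the LKS-SLAM fraction. Myeloid libraries had at most 0.0520 FPKM and 1 was listed at 0. CD4 libraries held 1.44 to 1.89 FPKM, CD8 libraries 0.812 to 1.38 FPKM and B cell libraries 0.0671 to 0.866 FPKM. LKS-SLAM cells had 5.56, 1.43 and 5.56 FPKM in rEC and 5.24, 5.74 and 7.43 FPKM in control libraries, with the low value in the library of high replication genes, the only one to reach the range of blood cells. B cell rEC replicate 1 had the highest B cell value, 0.866 FPKM, and is the library with T cell markers.

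Tet1 fell against LKS-SLAM cells in all 8 comparisons. The differences were -2.21 in rEC and -2.79 in control myeloid cells, and -1.75 in rEC and -2.58 in control B cells. Their size depends on the pseudocount of 1 FPKM, since the blood values lie near 0. With a pseudocount of 0.1 FPKM they were -4.93 in rEC and -5.65 in control myeloid cells, and -3.01 in rEC and -4.52 in control B cells, all called. In T cells, with the pseudocount of 1 FPKM, the Tet1 differences were -0.83 and -1.16 in rEC CD4 and CD8 cells (adjusted p = 0.0407 and 0.00207), and -1.36 and -1.69 in control CD4 and CD8 cells. The rEC CD4 call was lost in 4 of the alternative settings, with differences of -0.31 to -1.06. It was also lost without CD4 rEC replicate 1 or 2 (adjusted p = 0.087 and 0.196) and without LKS-SLAM rEC replicate 1 or 3 (0.165 and 0.153). Fitted alone, Tet1 was not called in rEC B or rEC CD8 cells either (adjusted p = 0.0522 and 0.099), and under quantile normalisation the rEC CD8 difference was -0.55 and was not called (0.0604). Without LKS-SLAM rEC replicate 2 the rEC differences were -2.69 in myeloid, -2.23 in B, -1.30 in CD4 and -1.64 in CD8 cells, and without B rEC replicate 1 the B cell difference was -1.96, all called. The genes most like Tet1 were Slc22a17 (r = 0.947), the Notch ligand Jag2, Spry1, Cish and Eya2.

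By group means, Tet1 was highest in LKS-SLAM and lowest in myeloid cells, and Tet2 was the reverse at these ends only. The highest Tet2 values were in blood myeloid cells, 10.9 and 9.94 FPKM in rEC and 13.5 and 10.3 FPKM in control cells. Lymphocytes had 4.56 to 8.59 FPKM. LKS-SLAM cells had 3.33, 1.60 and 5.77 FPKM in rEC and 5.19, 5.14 and 3.20 FPKM in control libraries, and this range overlapped that of lymphocytes. Tet2 rose by 1.43 in rEC and 1.24 in control myeloid cells against LKS-SLAM cells (adjusted p = 9.26e-05 and 0.000437). It also rose in rEC B, CD4 and CD8 cells, by 0.59, 0.85 and 0.94, and in control CD4 cells, by 0.70. In control B and CD8 cells the differences were 0.25 and 0.50 and were not called, but under quantile normalisation they were 1.09 and 1.21 and were called. The control CD8 difference was also called in 5 other settings, among them the groups fitted alone (adjusted p = 0.0461), a replicate block (0.0328) and both libraries set apart left out (0.0245).

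The smaller Tet2 calls depended on single libraries. Without LKS-SLAM rEC replicate 2 the rEC B cell difference was 0.24 (adjusted p = 0.343), the rEC CD4 difference 0.50 (0.0714), the rEC CD8 difference 0.59 (0.02) and the rEC myeloid difference 1.08 (0.000246), the last 2 still called. The rEC B cell call was lost when any 1 of 5 libraries was left out (0.53 and adjusted p = 0.113 without B rEC replicate 1), and the rEC CD4 call also without CD4 rEC replicate 1 (adjusted p = 0.117). The control CD4 call was lost without CD4 control replicate 1 (adjusted p = 0.0718) or 2 (0.204) and without LKS-SLAM control replicate 3 (0.148). Fitted alone, no rEC group kept its Tet2 call, with adjusted p of 0.0639 to 0.322. The genes most like Tet2 were Rbms1 (r = 0.894), Ms4a6c, Pstpip1, Col11a2 and the integrin Itgb2.

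Tet3 had the highest level of the 3 Tet genes in every lymphocyte library. CD4 cells had 43.7 and 41.5 FPKM in rEC and 42.6 and 42.6 FPKM in control libraries. CD8 cells had 35.8, 33.8 and 36.9 FPKM in rEC and 26.9, 27.4 and 32.5 FPKM in control libraries, and B cells 12.3 to 22.3 FPKM over both origins. Myeloid cells had 10.0 to 15.9 FPKM, FGRS culture 11.9, 6.08 and 6.35 FPKM and LKS-SLAM cells 9.27 to 11.2 FPKM. CD4, CD8 and B cells did not overlap one another within or across origins, while myeloid cells overlapped B cells, LKS-SLAM cells and FGRS culture.

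Tet3 rose against LKS-SLAM cells by 1.95 in rEC and 1.97 in control CD4 cells, by 1.69 in rEC and 1.42 in control CD8 cells, and by 0.88 in rEC and 0.77 in control B cells, with adjusted p at most 0.00399. With LKS-SLAM rEC replicate 2 left out the rEC differences were 2.0 in CD4, 1.74 in CD8 and 0.93 in B cells, and without B rEC replicate 1 the B cell difference was 0.80, all called. In myeloid cells the differences of 0.27 in rEC and 0.50 in control cells were not called. Quantile normalisation moved them to 0.88 and 1.13, both called, and without LKS-SLAM rEC replicate 2 the rEC difference was 0.33, not called. Fitted alone, the control difference was called (adjusted p = 0.0147). The share of Tet3 in the summed Tet FPKM was 77.2% and 76.1% in rEC and control B cells (77.6% in rEC without replicate 1), 83.6% and 81.6% in rEC and control CD4 cells, and 81.0% and 78.6% in rEC and control CD8 cells. It was 52.0%, 78.7% and 47.3% in rEC LKS-SLAM libraries, and 47.05%, 50.4% and 48.8% in control LKS-SLAM libraries, so that without replicate 2 the rEC mean was 49.6%, against 48.7% in control cells. Tet3 also exceeded Tet2 in 28 of the 29 libraries, with mean shares of 49.4% in FGRS culture, and 54.7% in rEC and 55.5% in control myeloid cells. Tet2 took 45.9% ± 5.56 of the Tet sum in FGRS culture, and 45.2% ± 6.38 in rEC and 44.4% ± 4.64 in control myeloid cells, against 18.7% ± 7.80 in rEC (22.4% without replicate 2) and 21.7% ± 5.66 in control LKS-SLAM cells. Among the genes most like Tet3 were Rapgef6 (r = 0.966), the histone methyltransferase Kmt2d, Tnrc6b and the lymphoid factor Ikzf1.

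B and T cells were compared directly. B cells minus the mean of CD4 and CD8 cells gave 2 of 7 genes called in rEC mice, against 18.8% of all genes, and 2 in control mice, against 27.3%. Tet3 was lower in B cells, with differences of -0.94 in rEC (adjusted p = 0.000947) and -0.93 in control mice (0.000655). Tet1 was lower too, at -0.76 in rEC (0.049) and -1.06 in control mice (0.00388). The rEC Tet1 call was lost without B rEC replicate 2 (adjusted p = 0.221) or 3 (0.234), without CD4 rEC replicate 1 (0.143) or 2 (0.0728), and without CD8 rEC replicate 1 (0.0908) or 3 (0.0754). Without B rEC replicate 1, the library with T cell markers, Tet1 differed by -0.96 and Tet3 by -1.02, both called. Fitted alone, control B cells gave 5 called genes, Uhrf1, Dnmt3a and Tet2 being lower besides, against 50.7% of all genes called in that fit. None of the 7 genes was called between CD4 and CD8 cells, against 1.88% of all genes in rEC and 3.48% in control mice. Tet3 had an unadjusted p of 0.0299 in control mice, with a difference of 0.55, and was called there when the groups were fitted alone (adjusted p = 0.0113), a fit that called 26.1% of all genes.

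FGRS culture cells were compared with the stem cell fraction of the marrow. The sorts differed, KLS in culture and LKS-SLAM in marrow, so sort and culture cannot be told apart in these differences. Against control cells, origin cannot be told apart from them either. In FGRS culture minus control LKS-SLAM cells 2 of the 7 genes were called, against 48.8% of all genes. Both were lower, against 31.7% of all genes called lower and 17.1% called higher. Tet1 had 1.61, 0.398 and 0.516 FPKM in FGRS culture, all below the control LKS-SLAM range of 5.24 to 7.43 FPKM, a difference of -2.0 ± 0.29 (SE, adjusted p = 1.64e-05). Dnmt3b differed by -0.91 ± 0.24 (adjusted p = 0.00422), with FGRS replicate 1 at the control level, and was not called when the groups were fitted alone (0.0547). FGRS replicates 2 and 3 also had the higher macrophage marker sums of 1144 and 631 FPKM. Not only Tet1 and Dnmt3b but all 7 genes were lower in these replicates than in FGRS replicate 1. That includes Uhrf1 and Tet2, whose means were higher in FGRS culture than in control LKS-SLAM cells. The part of the macrophage markers in these values was not tested.

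Tet2 and Uhrf1 were above the control LKS-SLAM range in every FGRS library without being called. Tet2 had 8.86, 6.03 and 6.83 FPKM in FGRS culture and at most 5.19 FPKM in control LKS-SLAM cells, a difference of 0.59 (adjusted p = 0.0513). Uhrf1 had 89.8, 63.7 and 60.1 FPKM in FGRS culture and at most 50.5 FPKM in control LKS-SLAM cells, a difference of 0.63 (adjusted p = 0.278). Ranges were apart for 3 of the 7 genes, against 58.6% of all genes. Without the 2 libraries set apart, which enter this comparison only through the pooled spread, both were called, at adjusted p of 0.00934 for Tet2 and 0.00884 for Uhrf1. Under quantile normalisation the Tet2 difference was 1.36 and was called (2.92e-06).

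Against rEC LKS-SLAM cells 5 of 7 genes were called, against 45% of all genes. Of these, 3 were higher in FGRS culture (Dnmt1 by 0.69, Uhrf1 by 1.44 and Tet2 by 0.94), against 17.2% of all genes, and 2 were lower (Dnmt3b at -0.62 and Tet1 at -1.41), against 27.8%. No member was called when the groups were fitted alone, with adjusted p of 0.123 to 0.359 for these genes. The call for Dnmt1 was lost without any 1 of 5 of the 6 libraries, with adjusted p of 0.0513 to 0.364. Uhrf1 was not called without FGRS replicate 1 (adjusted p = 0.0583) or LKS-SLAM rEC replicate 1 (0.0807) or 3 (0.173). Dnmt3b was not called without FGRS replicate 2 (0.227) or 3 (0.238) or LKS-SLAM rEC replicate 1 (0.206). Tet3 was called lower in FGRS culture without FGRS replicate 1, at -0.63 against control (adjusted p = 0.0129) and -0.65 against rEC LKS-SLAM cells (0.0115). Without LKS-SLAM rEC replicate 2 the same 5 genes were called, against 61.4% of all genes, with differences of 1.23 for Dnmt1, 2.41 for Uhrf1, 0.59 for Tet2, -0.71 for Dnmt3b and -1.89 for Tet1. The comparisons with rEC and control LKS-SLAM cells share the FGRS libraries.

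**Figure D5:**
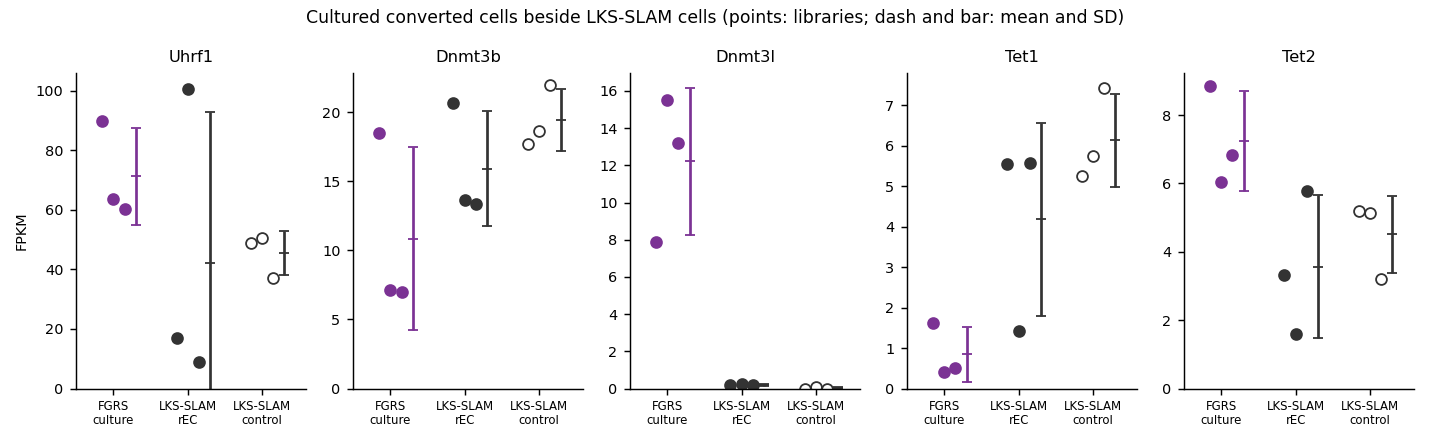
FPKM of 5 genes (vertical axis, each from 0) in the 3 libraries each of FGRS culture, rEC LKS-SLAM and control LKS-SLAM cells, with points for libraries and a dash and bar for the mean and SD, the Uhrf1 bar of rEC cells being cut at 0. Dnmt3l is at 7.86 to 15.5 FPKM in FGRS culture and at most 0.239 FPKM in LKS-SLAM cells, and Tet1 is at 1.61 FPKM or below in FGRS culture.

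A cofactor of the de novo enzymes was present in the culture. Dnmt3l, a catalytically inactive relative that stimulates DNMT3A and DNMT3B and is best known from germ cells, had 7.86, 15.5 and 13.2 FPKM in FGRS culture. Control LKS-SLAM cells had 0, 0.0849 and 0 FPKM and rEC LKS-SLAM cells 0.165, 0.239 and 0.186 FPKM. The difference was 3.64 ± 0.19 from control and 3.42 ± 0.19 from rEC LKS-SLAM cells (SE, adjusted p = 7.6e-12 and 1.26e-11). No library assigned to a sorted group exceeded the 1.49 FPKM of B control replicate 1. Exons of Dnmt3l overlap those of Aire by at most 67 bases, and Aire was at 0.0265 to 0.161 FPKM in FGRS culture. Zfp57, a zinc finger protein that keeps methylation at imprinted genes, moved the other way, at 0.633, 0.345 and 0.467 FPKM in FGRS culture against 12.3, 11.7 and 6.91 FPKM in control LKS-SLAM cells (difference -2.90, adjusted p = 4.15e-05). It varied widely in rEC LKS-SLAM cells, at 10.1, 1.48 and 26.6 FPKM.

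Other genes of the pathway were counted by list in FGRS culture minus control LKS-SLAM cells, where the median over all genes was -0.19, with 17.1% of all genes called higher and 31.7% lower. A count near these shares is not a result about its list. Of 7 readers of methylated CpG 1 was higher and 5 were lower (median -0.56), including Zbtb4 (-1.98) and Zbtb38 (-1.28). Of 15 tested demethylation partners 3 were higher and 6 lower (median -0.33), with Idh1, which makes the TET substrate 2-oxoglutarate, 1.83 higher and the CXXC protein Cxxc5 lower, at -2.06. Of 12 genes of the methyl donor cycle 3 were higher and none lower (median 0.45), led by Shmt2 (1.96). Of 9 maintenance partners 2 were higher and 1 was lower (median -0.12). Mitosis genes were higher for 9 of 16 (median 1.33), replication genes for 1 of 18 with 1 lower (median 0.63).

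FGRS culture minus control myeloid cells gave all 7 genes called, against 58.1% of all genes. Of these 5 were higher, against 37.8% of all genes, and 2 lower, against 20.3%. Uhrf1 was higher by 5.87, Dnmt1 by 3.19, Dnmt3b by 2.75, Tet1 by 0.79 (2.71 with a pseudocount of 0.1 FPKM) and Dnmt3a by 0.61, and Tet3 and Tet2 were lower, at -0.85 and -0.65. The calls for Dnmt3a, Tet1 and Tet2 had adjusted p of 0.0283 to 0.0462, and each was lost without either myeloid control library. Dnmt3a and Tet1 were also not called without FGRS replicate 1 (adjusted p = 0.143 and 0.215), and Tet2 not without FGRS replicate 2 or 3 (0.137 and 0.0943). Under quantile normalisation the Dnmt3a difference was 0.20 and was not called.

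Last, cells of converted origin were set against their wild-type counterparts, the question of whether engrafted rEC cells differ from normal ones. None of the 7 genes was called in LKS-SLAM (1.32% of all genes called), myeloid (0.227%), B (0%), CD4 (0.0213%) or CD8 cells (1.13%), in the mean of the 5 differences (0.895%) or in the F test of whether they differ between cell types (0.277%). Over the 7 genes and 5 cell types, limma gave 1 unadjusted p under 0.05, for Dnmt3a in myeloid cells (difference -0.54, adjusted p = 1). It had 6.72 and 3.10 FPKM in rEC and 7.12 and 7.27 FPKM in control myeloid libraries, and the difference was -0.09 without rEC replicate 2 and -1.0 without rEC replicate 1. In rEC replicate 2 neutrophil markers summed to 86821 FPKM, against 32525 to 43125 FPKM in the other myeloid libraries, and the part of these markers was not tested.

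In LKS-SLAM cells the result turned on 1 library. Dnmt1 had 38.6, 102 and 28.1 FPKM in rEC libraries and 71.6, 64.4 and 55.4 FPKM in control libraries. Uhrf1 had 16.9, 100.4 and 8.96 FPKM in rEC libraries and 48.8, 50.5 and 37.1 FPKM in control libraries. Replicates 1 and 3 were thus below all controls for both genes, and replicate 2 above all of them. With all libraries the differences were -0.39 ± 0.27 for Dnmt1 and -0.81 ± 0.47 for Uhrf1 (SE, adjusted p = 0.749 and 0.657). Without replicate 2 they were -0.93 and -1.79, both called (adjusted p = 0.000776 and 2.09e-05), with 8.94% of all genes called. Replicate 2 was set apart partly by its replication genes, with which both genes varied. Leaving it out removed the rEC values above the controls, and these p-values do not allow for that choice. The sum of replication genes was 498, 1972 and 273 FPKM in rEC and 947, 964 and 703 FPKM in control LKS-SLAM cells, so rEC replicates 1 and 3 were again below all controls and replicate 2 above them. Replicates 1 and 3 also differed from the controls in other sums. Stem cell markers summed to 1035 and 1115 FPKM, against 697 to 762 FPKM in controls. Neutrophil markers summed to 328 and 33.0 FPKM against 1119 to 1395 FPKM, and erythroid markers to 52.0 and 20.7 FPKM against 161 to 424 FPKM. Mitosis genes summed to 110 and 119 FPKM against 245 to 543 FPKM. The part of these genes and markers in the differences was not tested.

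Without that library Uhrf1 was also called in the mean of the 5 origin differences, at -0.51 (adjusted p = 0.00636), against -0.32 with it (0.784), and the F test gave adjusted p of 0.00364 for Uhrf1 and 0.0168 for Dnmt1. That mean called 3.56% and that F test 2.47% of all genes. These calls rest on the same choice of library to leave out. In blood, Uhrf1 was lower without overlap in rEC than in control cells of the myeloid, CD4 and CD8 types, at 0.149 to 0.151 against 0.178 to 0.249 FPKM, 2.40 to 2.54 against 3.47 to 5.10 FPKM, and 1.96 to 2.76 against 2.95 to 3.43 FPKM. The differences were -0.08, -0.59 and -0.31 and none was called. In B cells Uhrf1 differed in the other direction, by 0.21, with means of 2.65 FPKM in rEC and 2.13 FPKM in control cells (adjusted p = 1, and 0.32 without B rEC replicate 1). Mitosis genes summed to 24.8 and 24.9 FPKM in rEC and 37.0 and 38.0 FPKM in control CD4 cells. In CD8 cells the sums were 14.7 to 16.9 FPKM in rEC and 20.4 to 23.8 FPKM in control libraries, and in myeloid cells they overlapped. Sums of replication genes overlapped in CD4 and CD8 cells and were lower in rEC myeloid cells. The part of these genes in the Uhrf1 values was not tested. Ranges were apart for 2 of the 7 genes in each of the myeloid, CD4 and CD8 types, against 44.2% of all genes in myeloid, 37.3% in CD4 and 30.5% in CD8 cells. The other genes were Dnmt3a, lower in rEC myeloid cells, Dnmt1, higher in rEC CD4 cells, and Tet3, higher in rEC CD8 cells by 0.29 (adjusted p = 0.994), where the control libraries held more B cell and macrophage markers, as given above. In LKS-SLAM and B cells no gene of the 7 had ranges apart, against 6.44% and 6.94% of all genes.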

How the data were processed

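Poly-A RNA of 30 libraries was sequenced with a non-stranded kit, per the labels' protocols. Per the submitters' processing notes, the build was mm10 and the tools were Cufflinks 2.2.1 and TopHat2 2.1.0, with Trimmomatic 0.36, FastQC 0.11.5 and bcl2fastq 2.17 also listed. The authors deposited FPKM per gene, which hold no counts, so no count test was possible and depth is known only relative to 1 library, from the steps between low values (values up to 0.5 FPKM, smoothed after a first estimate for 1 library was unstable).

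From the deposited FPKM, log2(FPKM + 1) was fitted with limma 3.58.1 (R 4.3.3, trended variance) with 1 mean for each of 11 groups over 29 libraries, leaving 18 residual degrees of freedom. Genes with at least 1 FPKM in at least 2 libraries (14083) were tested in 22 comparisons at a threshold of 0.05. Benjamini-Hochberg adjustment was over all 14083 genes, within each comparison. Tests were 2-sided, apart from the F test, which has no direction. The fit was checked on simulated data. Tables and plots used Python 3.11.15, numpy 2.4.6, pandas 2.3.3 and matplotlib 3.10.9. A B220+ library titled for clone 47G1 (primary), but without rEC in its title and annotated wild type, entered no comparison.

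The 7 genes and all lists were chosen with earlier results of these data known. All 7 were named, with the 5 genes nearest to each by Pearson's r (genes averaging at least 5 FPKM over groups, unnamed gene models left out), and from each list up to 3 called genes with the largest difference. A few genes that this rule would name are not reported here. One maintenance partner was matched by its older symbol, 2810417H13Rik, after its current one was not found. Alternatives were a pseudocount of 0.1, no filter, a filter of 5 FPKM, quantile normalisation, array weights, the compared groups fitted alone, a replicate block, leaving out single libraries and leaving out both libraries set apart.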

Additional observations from a re-analysis of the deposited data

Results flagged for a closer look

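Tet2 was at 6.52 FPKM in the B220+ library of clone 47G1 that enters no comparison, above the 4.79 to 5.99 FPKM of rEC B cells and the 4.56 to 6.27 FPKM of control B cells. It was singled out as a signal above the controls in a library the comparisons do not use. The difference is that of a single library and was not tested. Neutrophil markers summed to 140 FPKM in this library, against 6.89 to 24.6 FPKM in the grouped B cell libraries, and their part was not tested.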

How the results depend on the processing

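No difference of the 7 genes that was called in the main fit of 29 libraries changed sign under the alternatives run. Among those called only in an alternative, Dnmt1 in rEC B and CD4 minus LKS-SLAM cells did change sign. It was -0.86 and -0.66 without LKS-SLAM rEC replicate 3, and 0.06 and 0.25 without LKS-SLAM rEC replicate 2. Signs also changed for Dnmt3a and Tet3 in FGRS culture minus control LKS-SLAM cells, called as lower but reaching 0.07 and 0.03 elsewhere. The same held for Dnmt3a in FGRS culture minus rEC LKS-SLAM cells, called as lower but reaching 0.01. Tet3 in rEC myeloid minus LKS-SLAM cells was called as higher but reached -0.04. The number of genes called moved as follows, with the share of all genes called in the same fit in percent. FGRS culture minus rEC LKS-SLAM cells gave 3 called genes with no filter (34.1%), 3 under quantile normalisation (40.2%) and 0 with the groups fitted alone (7.12%). In rEC B cells minus T cells 1 gene was called with no filter (13.5%) and 1 with the filter of 5 FPKM (20.7%). Array weights estimated gene by gene gave 2 called genes for LKS-SLAM rEC minus control (8.66%), 1 in the mean of the origin differences (10.9%), 2 in the F test (9.35%), 5 in FGRS culture minus control LKS-SLAM cells (69.4%), 1 in control CD4 minus CD8 (19.8%) and 5 in control B minus T cells (55.1%). Weights by REML, an alternative chosen after seeing the data and stopped before convergence, gave 3 (44.3%), 1 (19.6%), 2 (35.1%), 6 (72%), 1 (20.8%) and 5 (55.9%) in the same order. Fitted alone, rEC B minus LKS-SLAM gave 2 (16.9%), rEC CD4 minus LKS-SLAM 2 (10.2%), rEC CD8 minus LKS-SLAM 3 (26.2%), rEC myeloid minus LKS-SLAM 4 (37.4%), control CD4 minus CD8 1 (26.1%) and control B minus T cells 5 (50.7%). Leaving out both libraries set apart gave 2 in LKS-SLAM rEC minus control (11.1%), 1 in the mean (5.01%), 2 in the F test (3.94%) and 4 in FGRS culture minus control LKS-SLAM cells (61.6%). Leaving out single libraries gave 0 to 2 in LKS-SLAM rEC minus control, 0 to 1 in the mean, 0 to 2 in the F test, 2 to 5 in FGRS culture minus rEC LKS-SLAM, 4 to 6 in FGRS culture minus control myeloid, 3 to 5 in rEC CD4, 4 to 5 in control CD4 and 5 to 7 in rEC B minus LKS-SLAM cells, and 1 to 2 in rEC B minus T cells. The cause of these changes was not tested, beyond the fewer libraries used. Of 48 same-numbered pairs of libraries, 6 correlated above 0.1 (range -0.33 to 0.24). Differently numbered pairs were not looked at, so whether replicate numbers pair the libraries cannot be told from this. A replicate block over 18 libraries, those of control cells, FGRS culture and rEC myeloid cells, gave 4 of the 7 genes in FGRS culture minus control LKS-SLAM cells, with 8362 genes called in all, against 8472 without the block. Depth limits the low values, such as myeloid Tet1.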

Other observations

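In the B220+ library of clone 47G1 that belongs to no group, Dnmt1 was at 31.6, Uhrf1 at 2.08, Dnmt3a at 5.93, Dnmt3b at 3.80, Tet1 at 0.235 and Tet3 at 17.4 FPKM, each within the range of control B cells. Dnmt3l was at 1.65 FPKM there, against 1.49 FPKM in the highest of the other B cell libraries.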
